A study of Mus musculus with 6 samples.

Results

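The genes described here are 41 NRF2 targets and antioxidant genes of the mouse, taken by name from GENCODE M21 through their Ensembl identifiers among the 55536 genes of each library. They comprise the factor NRF2 and its repressor, the genes of the glutathione and thioredoxin systems, peroxidases, NADPH-producing enzymes, ferritins, superoxide dismutases and catalase. RNA was sequenced from SVEC4-10, an SV40-immortalised mouse line labelled as endothelial and grown with fetal bovine serum. There were 3 control libraries, from cells left untreated, and 3 libraries from cells given nattokinase for 24 hours. Nattokinase is a fibrin-degrading serine protease secreted by Bacillus subtilis. The labels give no dose, and all libraries come from 1 cell line. The comparison asks how the transcripts of this defence system differ after the exposure. The labels do not say whether the replicates of a group came from different cultures. The p-values therefore reflect the spread among these libraries alone, and that spread may be technical.

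NRF2, encoded by Nfe2l2, is a transcription factor that the adaptor KEAP1 holds at low levels by directing its ubiquitination. Oxidants and electrophiles modify cysteines of KEAP1, after which NRF2 accumulates, pairs with small MAF proteins and binds antioxidant response elements. Its targets supply glutathione, reduced thioredoxin and NADPH, and detoxify peroxides, quinones and haem. Much of this control acts on the NRF2 protein, which was not measured here. In vessels these enzymes are known for buffering hydrogen peroxide and superoxide.

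The antioxidant response element is a short DNA sequence, and 5 members held its stricter form TGANTCAGC, where N is any base, in the promoter window of the RefSeq table (GRCm38.p6, 250 bases before to 50 after the start). They are shown because this is the site through which NRF2, or its competitor BACH1, acts with small MAF proteins. Each line is the strand that reads the motif, 5′ to 3′, with the motif in capitals and 10 bases on each side.
Srxn1, chr2:152105469-152105497, plus strand: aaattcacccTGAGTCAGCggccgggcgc
Osgin1, chr8:119437038-119437066, minus strand: ttcataagcgTGAGTCAGCaggggcccct
Me1, chr9:86695902-86695930, minus strand: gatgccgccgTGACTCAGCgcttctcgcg
Prdx1, chr4:116685456-116685484, minus strand: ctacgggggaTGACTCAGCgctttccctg
Gstp1, chr19:4037968-4037996, minus strand: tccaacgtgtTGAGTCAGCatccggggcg
Of the 41 members 34 were in the promoter table, and Abcc1, Gclc, Gsr, Gsta4, Hmox1, Prdx6 and Sod3 were not. The stricter motif, searched on both strands, occurred in 5 of these 34 members (14.7%), against 1.37% of all 27025 genes in the table and 1.19% of its 32851 windows. It contains the 7-base AP-1 motif TGANTCA, which the same 5 members (14.7%) held and no other. That motif occurred in 8.97% of all genes and 7.81% of all windows. The broader form TGACNNNGC occurred in 10 of the 34 members (29.4%), namely G6pdx, Gclm, Me1, Nfe2l2, Pgd, Prdx1, Sod1, Srxn1, Txnrd1 and Ugdh, and in 14.0% of all genes and 12.4% of all windows. The stricter form is not a subset of the broader one. The match TGAGTCAGC, shown for Srxn1, Osgin1 and Gstp1, does not read as TGACNNNGC. The motifs were chosen after the members' windows had been scanned. The members were listed as NRF2 targets and antioxidant genes, so some are there because they are reported NRF2 targets. A match describes letters and not binding.

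Osgin1 had 1 stricter match, shown here with the bases from the start of its window to the next exon in GENCODE M21, in capitals where they match on either strand.
Osgin1 upstream, chr8:119436897-119437117, plus strand: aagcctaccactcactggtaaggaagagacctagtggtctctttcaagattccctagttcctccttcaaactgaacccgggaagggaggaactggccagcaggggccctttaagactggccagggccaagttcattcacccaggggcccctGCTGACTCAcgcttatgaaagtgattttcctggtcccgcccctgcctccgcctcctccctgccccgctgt
This stretch of 221 bases lies between annotated exons of Osgin1, since longer isoforms start upstream of it. Osgin1 is described with its values below because it was among the members that fell.

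Between 15044778 and 18341370 reads or fragments were assigned to genes per library, and values are FPKM, the reads per kilobase of exon, scaled to the assigned reads of each library. A gene was tested where it reached 1 FPKM in at least 3 libraries, with limma on log2(FPKM + 1) and Benjamini-Hochberg adjustment over all 10913 genes tested. "Called" means an adjusted p under 0.05, and each log2 fold change is nattokinase minus control on that scale. Reads on the 18S-like gene CT010467.1 and on Lars2 took 2.15% to 3.36% of the control libraries and 0.617% to 0.701% of the nattokinase libraries. Of 12 endothelial markers only Flt1 reached the filter, and 0 reads fell on Tie1, Erg, Emcn or Cldn5 in any of the 6 libraries, so most defining markers of the labelled cell type are absent or near 0. The endothelial sum was 3.24 to 4.49 FPKM in the controls and 5.65 to 6.25 FPKM with nattokinase. It mostly follows Flt1, whose mean was 2.60 FPKM in the controls and 4.84 FPKM with nattokinase (called higher). Of 8 fibroblast and mural markers 6 reached the filter, and Thy1 was at 0. Their summed level was 2067 to 2215 FPKM in the controls and 1849 to 1920 FPKM with nattokinase. Most of it was Col1a1 (means 1403 and 1236 FPKM, not called). Col3a1 was called lower (144 and 95.8 FPKM), whereas Pdgfra and Pdgfrb separated as higher without a call. Leukocyte markers summed to 6.16 to 7.48 FPKM and 8.31 to 8.41 FPKM, with 2 of 7 past the filter (Cd14 and Cd68). Cd68 was called higher (means 1.19 and 2.42 FPKM) and Cd14 was not called (5.44 and 5.78 FPKM). Ptprc, Itgam and Cd3e had 0 reads in all libraries. Epithelial markers (1 of 6 past the filter, Krt8) summed to 4.34 to 4.81 FPKM and 4.47 to 5.57 FPKM, with Krt5 and Cldn4 at 0. Erythroid markers (0 of 4) summed to 0.0553 to 0.434 FPKM and 0.213 to 0.320 FPKM, with Hbb-bs at 0. The part of these shares and markers in the results was not tested.

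After nattokinase 1 of the 40 tested members rose and 4 fell. Hmox1, the inducible haem oxygenase, rose 1.24-fold, and Gpx1, the main cytosolic glutathione peroxidase, fell to 0.778 of its control level. Osgin1, an oxidative-stress-induced growth inhibitor, Me1, the cytosolic malic enzyme, and Sod3, the secreted superoxide dismutase, fell to 0.797, 0.887 and 0.714 of control. The other 35 tested members, among them Nfe2l2, Nqo1, Gclc, Gclm, Srxn1 and Txnrd1, were not called. The called members were 12.5% of those tested, against 8.85% of all genes tested. Those that rose were 2.50% against 5.61%, and those that fell 10.0% against 3.24%. The median log2 fold change was −0.04 over the 40 members and 0.01 over all genes. Groups did not overlap in 13 of the 40 members (32.5%), against 28.8% of all genes, with 5 of them higher and 8 lower with nattokinase. Over all genes 17.4% separated as higher and 11.4% as lower. Limma-voom, run as a check on reads recovered from the FPKM, called 6 of the 40 members. Of all 10913 genes it called 872 higher and 462 lower, more than limma did. The share of all genes with an unadjusted p under 0.05 is not given here, so such counts below have no background beside them.

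**Figure D1:**
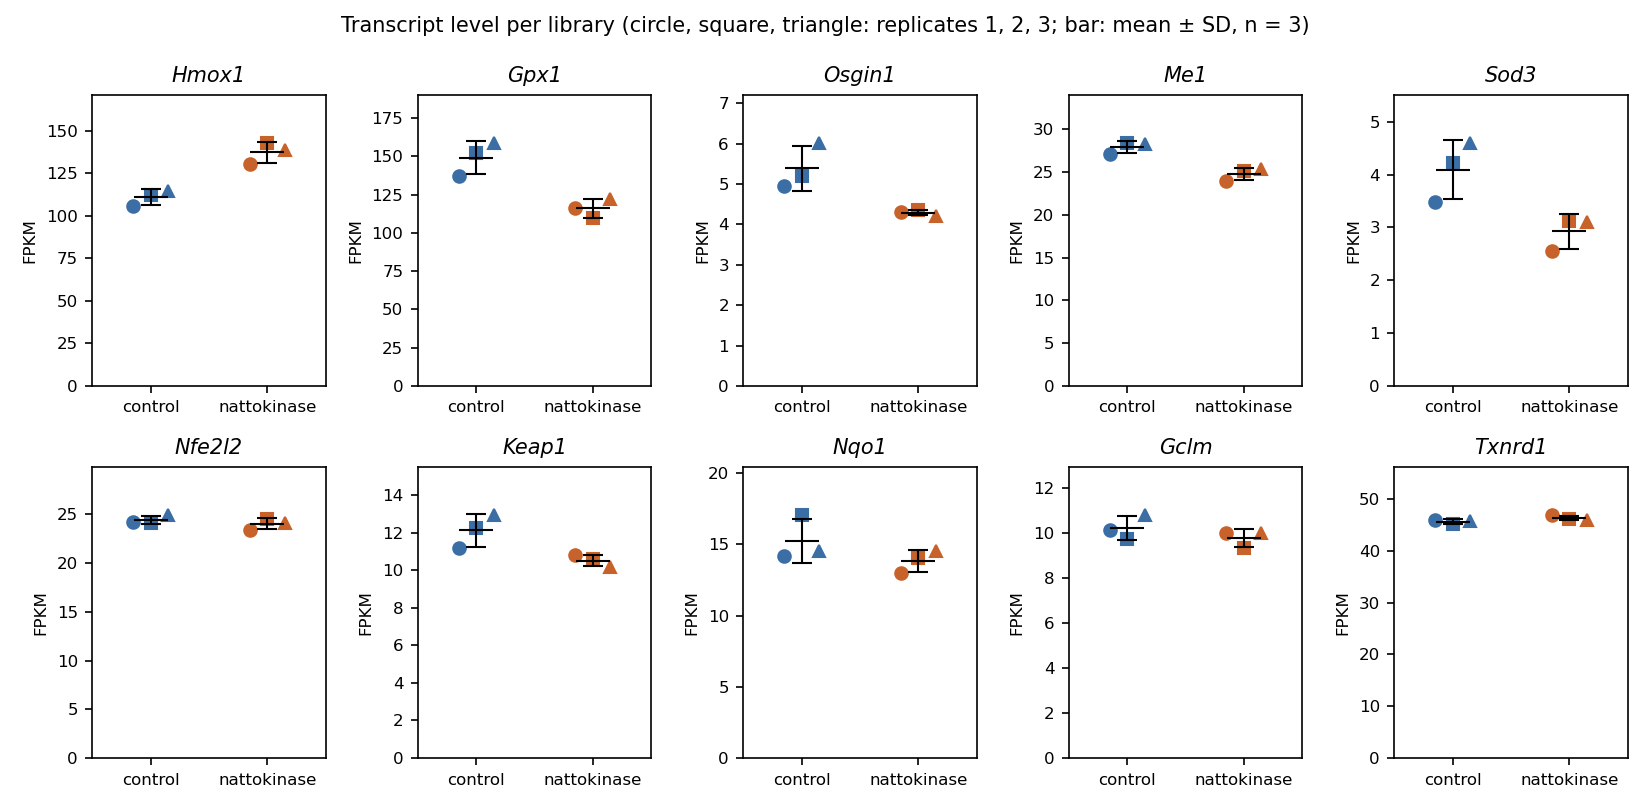
FPKM of 10 members in each library (y axis from 0), control in blue and nattokinase in orange, with replicates 1, 2 and 3 as circle, square and triangle and the mean ± SD (n = 3 per group) in black. The top row holds the 5 called members, whose groups do not overlap, and in the bottom row only Keap1 and, by a small margin, Txnrd1 separate.

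The regulator itself was level. Nfe2l2 had 24.3, 24.1 and 24.9 FPKM in the controls and 23.4, 24.5 and 24.2 FPKM with nattokinase. The groups overlapped, and the log2 fold change was −0.02 (SE 0.043, 95% interval −0.12 to 0.07, limma adjusted p = 0.81). Keap1, the repressor, had 11.2, 12.3 and 12.9 FPKM in the controls and 10.8, 10.6 and 10.2 FPKM with nattokinase. All 3 nattokinase libraries lay under the controls, with a log2 fold change of −0.19 (95% interval −0.32 to −0.05) that missed the threshold (limma adjusted p = 0.090). Keap1 passed in 4 of its 15 alternatives: limma-voom (adjusted p = 0.047), protein-coding totals (0.045), quantile normalization (0.049) and without control replicate 1 (0.025). Over all 15 the adjusted p ran from 0.025 to 0.28. Exons of Keap1 overlap those of Gm16754 on the other strand.

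Hmox1 stood alone among the stress-inducible targets in rising. Haem oxygenase 1 degrades haem to biliverdin, carbon monoxide and iron. Its transcript (chromosome 8, 75093621 to 75100589, GRCm38) had 105, 112 and 115 FPKM in the controls and 130, 142 and 139 FPKM with nattokinase. Every treated library was above every control, at 111 ± 4.77 and 137 ± 6.16 FPKM (SD, n = 3 each). The log2 fold change was 0.31 (SE 0.053, 95% interval 0.19 to 0.42, limma adjusted p = 0.0065). The call held without any 1 library (limma adjusted p from 0.0076 to 0.039), but without the filter on low values, which raised the number of genes tested to 24549, the adjusted p was 0.052.

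The other inducible targets did not follow Hmox1. Osgin1 (chromosome 8, 119434124 to 119446256) had 4.96, 5.20 and 6.01 FPKM in the controls and 4.31, 4.35 and 4.22 FPKM with nattokinase. Its treated libraries were all lower, with a log2 fold change of −0.27 (SE 0.070, 95% interval −0.42 to −0.11, limma adjusted p = 0.043). Nqo1, a quinone reductase often used as a readout of NRF2, had 14.2, 17.03 and 14.6 FPKM in the controls and 13.0, 14.0 and 14.5 FPKM with nattokinase. Control replicate 2 was the high library and the groups overlapped (log2 fold change −0.13, 95% interval −0.29 to 0.03, limma adjusted p = 0.33). Srxn1, the sulfiredoxin that repairs over-oxidised peroxiredoxins, had 14.1, 15.9 and 16.2 FPKM against 14.6, 14.8 and 15.5 FPKM, with overlapping groups (log2 fold change −0.04, 95% interval −0.17 to 0.10, limma adjusted p = 0.77). Ugdh, which makes UDP-glucuronate for conjugation, and Abcc1, an exporter of glutathione conjugates, had log2 fold changes of −0.06 and 0.04 and were not called. Among these 6 targets 1 rose and 1 fell, beside the 5.61% and 3.24% of all genes given above.

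The 4 genes of glutathione synthesis and recycling were not called. Groups did not overlap in 2 of them (50%), 1 higher and 1 lower, against 28.8% of all genes. The rate-limiting ligase is a pair of a catalytic subunit, Gclc, and a modifier subunit, Gclm. Gclc had 7.72, 7.50 and 7.26 FPKM in the controls and 8.41, 8.05 and 8.72 FPKM with nattokinase. The treated libraries were all higher, yet the log2 fold change of 0.14 (95% interval 0.02 to 0.27) did not pass (limma adjusted p = 0.14). Gclm had 10.1, 9.76 and 10.8 FPKM against 10.0, 9.32 and 10.0 FPKM, and its groups overlapped (log2 fold change −0.06, 95% interval −0.18 to 0.07, limma adjusted p = 0.60). Thus the 2 subunits of 1 enzyme had estimates of opposite sign, neither called. Gss, which completes glutathione, had a log2 fold change of −0.08. Gsr, which returns oxidised glutathione to its reduced form, had 31.4, 32.9 and 32.5 FPKM in the controls and 28.9, 30.8 and 28.3 FPKM with nattokinase. Its groups did not overlap either (log2 fold change −0.13, limma adjusted p = 0.12). None of these 4 genes was called by limma or by limma-voom, and 2 had an unadjusted p under 0.05.

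No thioredoxin, thioredoxin reductase or peroxiredoxin gene was called. Txn1, the cytosolic thioredoxin that reduces protein disulfides, had 201, 236 and 246 FPKM in the controls and 248, 218 and 229 FPKM with nattokinase. The control range enclosed 2 of the 3 treated libraries, and the log2 fold change was 0.03 (95% interval −0.15 to 0.21). Txnrd1, the selenoenzyme that reduces it, had 46.0, 45.1 and 45.9 FPKM against 46.8, 46.1 and 46.1 FPKM, which separated by a margin far under 1 FPKM (log2 fold change 0.02, 95% interval −0.07 to 0.11, limma adjusted p = 0.82). Of the mitochondrial pair, Txn2 had a log2 fold change of −0.07. Txnrd2 had 1.79, 1.96 and 1.64 FPKM in the controls and 1.99, 2.27 and 2.33 FPKM with nattokinase, where all treated libraries were higher without a call (log2 fold change 0.19, 95% interval 0.01 to 0.37, limma adjusted p = 0.19). The 6 peroxiredoxins, which remove hydrogen peroxide, lay between 29.9 FPKM for Prdx6 and 174 FPKM for Prdx1 in the control means. Their log2 fold changes ran from −0.06 for Prdx3 to 0.06 for Prdx6, and their groups overlapped in all 6. Limma and limma-voom called 0 of the 6, and 0 had an unadjusted p under 0.05. Of the 4 thioredoxin genes limma and limma-voom called 0, and 1 had an unadjusted p under 0.05.

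Among glutathione peroxidases Gpx1 fell while Gpx4 did not pass the test. Gpx1 (chromosome 9, 108338903 to 108340343), a selenoenzyme that reduces hydrogen peroxide with glutathione, had 137, 152 and 158 FPKM in the controls and 116, 110 and 122 FPKM with nattokinase. All treated libraries lay under all controls, at 149 ± 10.9 and 116 ± 6.22 FPKM (SD, n = 3 each). The log2 fold change was −0.36 (SE 0.064, 95% interval −0.50 to −0.22, limma adjusted p = 0.0073), and the call held without any 1 library (limma adjusted p from 0.0019 to 0.037). It was lost without the filter on low values (limma adjusted p = 0.072). Gpx4, the selenoenzyme that reduces lipid hydroperoxides in membranes, had 181, 216 and 203 FPKM against 197, 202 and 186 FPKM. Its treated libraries lay inside the control range, with a log2 fold change of −0.03 (95% interval −0.18 to 0.12, limma adjusted p = 0.82). Gpx7 and Gpx8, peroxidases of the endoplasmic reticulum with cysteine in place of selenocysteine, had log2 fold changes of 0.21 (95% interval −0.16 to 0.57) and 0.11 (95% interval −0.02 to 0.23). The wide interval of Gpx7 went with 1.63 FPKM in control replicate 1 against 2.63 and 3.15 FPKM in the other controls. Gpx3, the secreted form, was the 1 member under the filter, at 0.283 to 0.440 FPKM over the 6 libraries, with at least 9 reads in each.

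**Figure D2:**
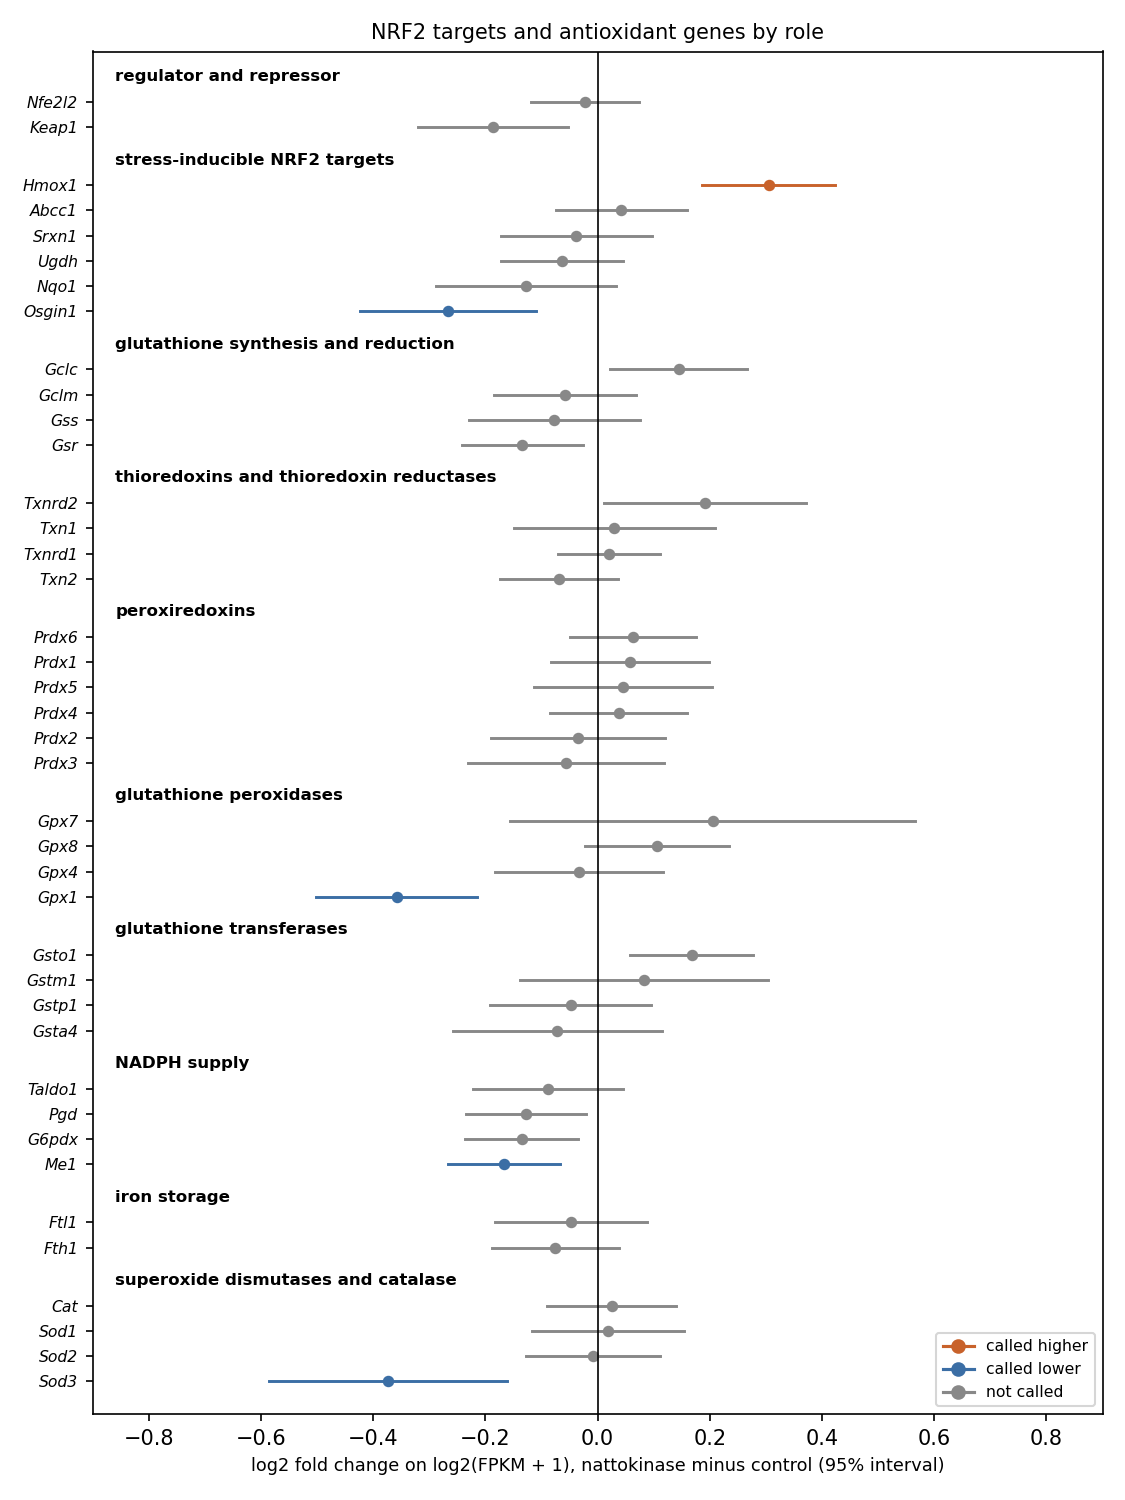
Log2 fold change on log2(FPKM + 1), nattokinase minus control, of the 40 tested members by role, with the 95% interval from limma as a line. Orange marks the 1 member called higher (Hmox1), blue the 4 called lower (Osgin1, Gpx1, Me1 and Sod3) and grey the 35 not called.

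No glutathione transferase was called. Gsto1, an omega-class transferase that also reduces dehydroascorbate, had 41.1, 43.7 and 45.8 FPKM in the controls and 48.6, 49.3 and 49.0 FPKM with nattokinase. Its treated libraries were all higher (log2 fold change 0.17, 95% interval 0.06 to 0.28, limma adjusted p = 0.066), and limma-voom called it. Gsta4, which conjugates the lipid aldehyde 4-hydroxynonenal, Gstm1 and Gstp1 had log2 fold changes of −0.07, 0.08 and −0.05 with overlapping groups. Of the 4 genes 1 had an unadjusted p under 0.05. Gstm1 and Gstp1 have close paralogs, and no source used here says how reads matching several genes were counted.

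The enzymes that supply NADPH all had estimates below 0, and Me1 was called. Me1 (chromosome 9, 86581371 to 86695953), which makes NADPH from malate, had 27.2, 28.4 and 28.3 FPKM in the controls and 24.0, 25.1 and 25.3 FPKM with nattokinase. The groups did not overlap, and Me1 fell by 0.17 on the log2 scale (SE 0.045, 95% interval −0.27 to −0.07, limma adjusted p = 0.048). G6pdx and Pgd, the oxidative steps of the pentose phosphate pathway, gave similar estimates. G6pdx had 37.3, 38.8 and 40.1 FPKM against 34.8, 34.8 and 35.8 FPKM (log2 fold change −0.14, limma adjusted p = 0.10). Pgd had 23.0, 24.3 and 24.1 FPKM against 22.4, 20.7 and 21.9 FPKM (log2 fold change −0.13, limma adjusted p = 0.14). Both pairs of groups were separate without passing the test. Taldo1, of the non-oxidative branch, overlapped between groups at −0.09. Over the 4 genes the median log2 fold change was −0.13, beside 0.01 for all genes. Groups separated as lower in 3 of the 4 (75%), against 11.4% of all genes. Calls as lower were 1 of the 4 (25%), against 3.24% of all genes. Estimates were below 0 in 24 of all 40 tested members. Whether the 4 genes differ from other genes as a set was not tested. The exons of G6pdx overlap those of Ikbkg on the other strand, so reads of these genes cannot be told apart there unless strand was used.

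The ferritins were the highest transcripts of the system and were not called. Ftl1, the light chain, had 407, 471 and 445 FPKM in the controls and 419, 434 and 426 FPKM with nattokinase. Fth1, the heavy chain that oxidises iron for storage, had 288, 311 and 308 FPKM against 280, 291 and 289 FPKM. Groups overlapped for both, with log2 fold changes of −0.05 and −0.08 (limma adjusted p = 0.71 and 0.43). Neither was called by limma-voom, and 0 of the 2 had an unadjusted p under 0.05. Ferritin synthesis is largely controlled at translation by iron regulatory proteins, which RNA levels do not report. Ftl1 shares exon positions with Gm10252 and has 2 named pseudogenes in GENCODE M21, so its level is uncertain to that extent.

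Of the superoxide dismutases the secreted enzyme fell. Sod3 (chromosome 5, 52363791 to 52371418), which binds heparan sulfate outside cells, had 3.48, 4.21 and 4.59 FPKM in the controls and 2.55, 3.11 and 3.11 FPKM with nattokinase. Each treated library was under each control, at 4.10 ± 0.56 and 2.92 ± 0.32 FPKM (SD, n = 3 each). The log2 fold change was −0.37 (SE 0.095, 95% interval −0.59 to −0.16, limma adjusted p = 0.037). The cytosolic Sod1 and the mitochondrial Sod2 had log2 fold changes of 0.02 (95% interval −0.12 to 0.15) and −0.01 (95% interval −0.13 to 0.11). Sod2 lay between 5.18 and 5.42 FPKM in all 6 libraries. Catalase, Cat, which removes hydrogen peroxide in peroxisomes, had 28.3, 30.8 and 31.8 FPKM against 31.0, 31.2 and 30.2 FPKM, with the treated libraries inside the control range.

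The calls of Osgin1, Me1 and Sod3 needed nearly all libraries. Each was lost without control replicate 2, without control replicate 3 and without any 1 of the nattokinase replicates, with limma adjusted p up to 0.136, 0.145 and 0.126. Each was kept without control replicate 1 (limma adjusted p = 0.025, 0.031 and 0.012). Without the filter on low values all 3 were lost too (limma adjusted p = 0.184, 0.155 and 0.200). With Hmox1 and Gpx1 alone left, 1 member rose and 1 fell without any 1 of those 5 libraries. Without control replicate 1, 1 member rose and 6 fell, Keap1 and G6pdx being added. Osgin1 also missed the threshold with limma-voom on the recovered reads (adjusted p = 0.051).

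**Figure D3:**
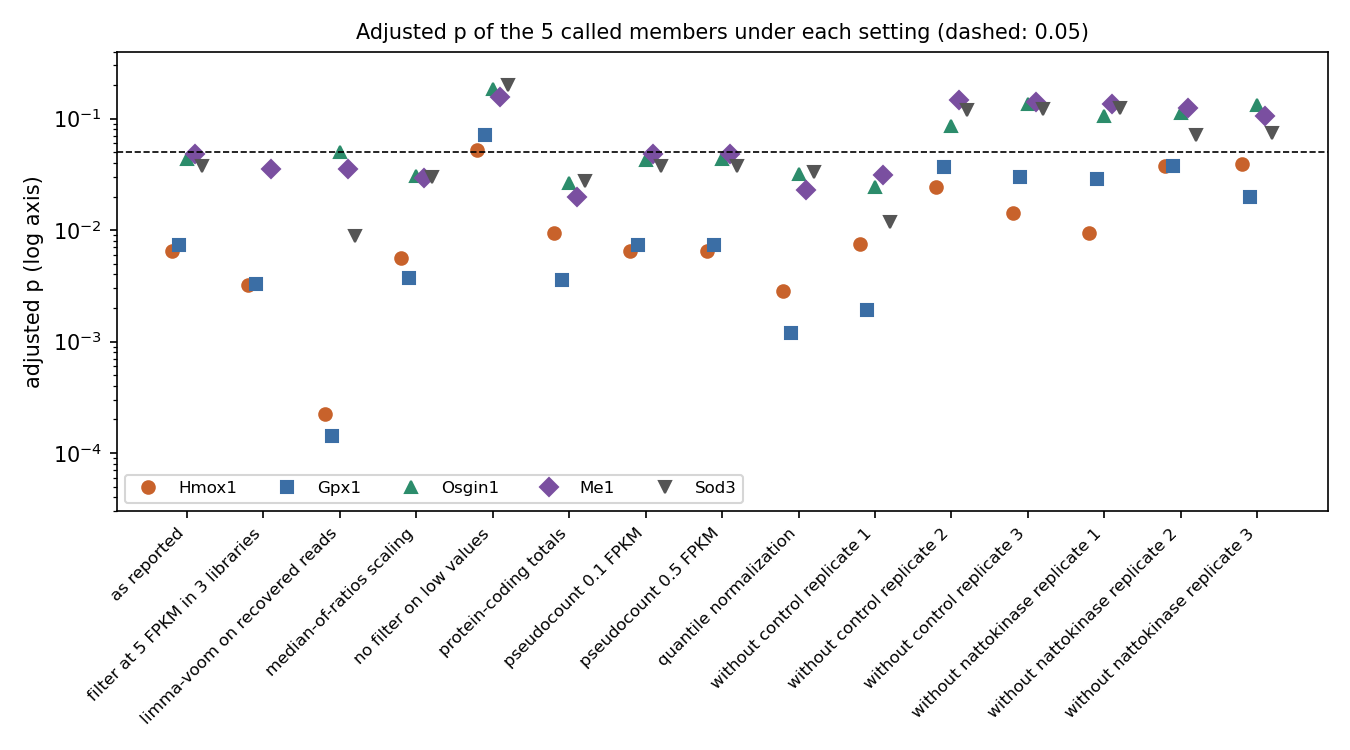
Adjusted p on a log axis for the 5 called members with the values as reported, under 8 other settings and without each library in turn, with the threshold of 0.05 dashed. Hmox1 and Gpx1 lie under the line in every setting shown except the one with no filter on low values, and Osgin1, Me1 and Sod3 cross it without 5 of the 6 libraries. Osgin1 and Sod3 have no point where their level was under a filter of 5 FPKM.

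Much of the variation among the members lay between controls. In 33 of the 40 tested members (82.5%) control replicate 1 was the lowest of the 3 controls, which held for 43.6% of all genes tested. The median deviation of the members from their own mean over 6 libraries was −0.06 in control replicate 1, 0.03 in control replicate 2 and 0.06 in control replicate 3 on the log2 scale. In the nattokinase libraries it was −0.02, −0.003 and −0.01. The controls thus lay on both sides of the treated libraries. Over all genes the same medians ran from −0.02 to 0.01. The median log2 fold change of the members was −0.08 without control replicate 1, −0.01 without control replicate 2 and −0.01 without control replicate 3.

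**Figure D4:**
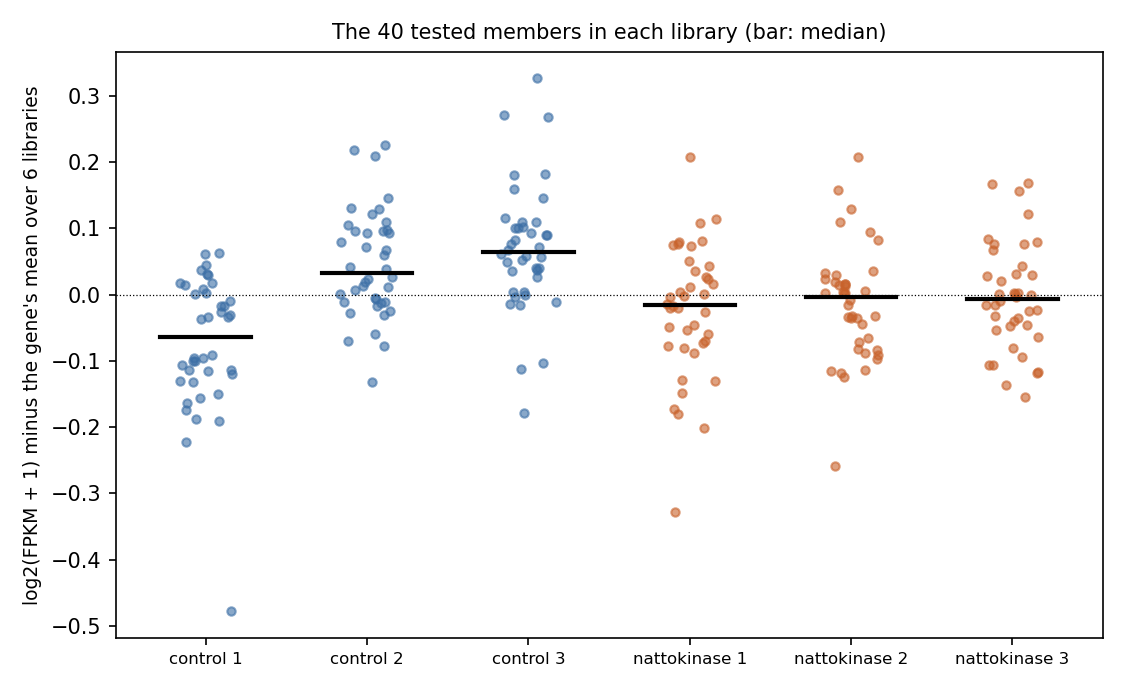
Each point is 1 of the 40 tested members in 1 library, as log2(FPKM + 1) minus that gene's mean over the 6 libraries, with the median as a black bar. The median of control replicate 1 is the lowest at −0.06 and that of control replicate 3 the highest at 0.06, with the 3 nattokinase medians between them.

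For most members the interval was narrow, but it rests on the spread among these libraries, which may be technical. It therefore does not bound a difference between separate cultures. Of the 35 members not called, 33 had a 95% interval within a 1.25-fold change in either direction, a bound chosen after the values were seen. The 2 exceptions were Txnrd2 and Gpx7, both under 4 FPKM. All 35 had an interval within 1.5-fold. These intervals are on the log2(FPKM + 1) scale, which understates changes of genes with low values.

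Among the regulators around NRF2, Bach1, Mafk and Maff rose. BACH1 represses Hmox1 and other targets until haem binds it, and small MAF proteins partner both BACH1 and NRF2. Of 13 listed regulators 12 were tested, 3 rose (25.0%, against 5.61% of all genes) and 0 fell (against 3.24%), with 6 at an unadjusted p under 0.05 and 3 called by limma-voom. The small MAF gene Mafg was not called (log2 fold change 0.10, limma adjusted p = 0.29), and Bach2 was under the filter. Bach1 had 6.83, 6.07 and 6.35 FPKM in the controls and 8.05, 8.27 and 8.08 FPKM with nattokinase, all treated libraries being higher (log2 fold change 0.30, SE 0.057, limma adjusted p = 0.010). Mafk rose from 9.60 ± 0.78 to 12.4 ± 0.68 FPKM (limma adjusted p = 0.012) and Maff from 8.25 ± 0.31 to 10.6 ± 1.13 FPKM (limma adjusted p = 0.022). Thus Bach1 and Hmox1 were both higher in the same libraries. Bach1 kept its call without any 1 library (limma adjusted p up to 0.048), but without the filter on low values Bach1, Mafk and Maff all missed the threshold (0.062, 0.095 and 0.139). Mafk lost it without nattokinase replicate 3 (limma adjusted p = 0.059), and Maff without control replicate 3 or nattokinase replicate 1 or 3 (up to 0.074). Exons of Mafk overlap those of Tmem184a on the other strand.

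Of the further reported NRF2 targets Idh1 and Mgst1 fell. Of 29 listed 24 were tested, 0 rose (against 5.61% of all genes) and 2 fell (8.33%, against 3.24%) with limma, 8 had an unadjusted p under 0.05 and 3 were called by limma-voom. Idh1, the cytosolic isocitrate dehydrogenase and another source of NADPH, had 26.2, 26.7 and 31.4 FPKM in the controls and 20.01, 19.0 and 18.5 FPKM with nattokinase. It fell by 0.53 on the log2 scale (SE 0.068, limma adjusted p = 0.0014), with every treated library lower. Mgst1, a microsomal glutathione transferase, fell from 8.52 ± 0.86 to 6.01 ± 0.60 FPKM (limma adjusted p = 0.010). Both calls held without any 1 library. Without the filter on low values Idh1 was still called (limma adjusted p = 0.034) and Mgst1 was not (0.1004).

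Of the methionine sulfoxide reductases, which repair oxidised methionine, Msrb3 and Msra rose, Msrb1 was not called (log2 fold change −0.12, limma adjusted p = 0.31) and Msrb2 was under the filter. Msrb3 had 40.1, 37.3 and 38.6 FPKM in the controls and 51.7, 57.3 and 54.2 FPKM with nattokinase (limma adjusted p = 0.00050, log2 fold change 0.48, SE 0.052). Msra had 2.097, 2.04 and 2.15 FPKM against 2.99, 2.74 and 3.28 FPKM (log2 fold change 0.37, limma adjusted p = 0.013). Both genes separated the groups, and Msra lost its call without nattokinase replicate 3 (limma adjusted p = 0.064) and without the filter on low values (0.072). In the same list of other glutathione and thioredoxin genes Sesn1 and Txnip fell. Sesn1, a p53- and FOXO-responsive sestrin, went from 9.37 ± 0.20 to 6.99 ± 0.36 FPKM (limma adjusted p = 0.0026). Txnip, which binds and inhibits thioredoxin, went from 36.6 ± 0.41 to 32.0 ± 1.10 FPKM (limma adjusted p = 0.026), a call that leaving out replicate 2 or 3 of either group removed (up to 0.122), as did testing without the filter on low values (0.106). Of 44 listed genes 27 were tested, 2 rose (7.41%, against 5.61% of all genes) and 2 fell (7.41%, against 3.24%).

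Iron handling and oxidant production were mostly uncalled or under the filter. Of 17 iron and metallothionein genes 12 were tested and limma called 0, against 8.85% of all genes. Groups did not overlap in 7 of the 12 (58.3%), 4 higher and 3 lower, against 28.8% of all genes. At an unadjusted p under 0.05 there were 3, and limma-voom called 3, beside its 872 higher and 462 lower of all 10913 genes. Of 18 genes of NADPH oxidases, nitric oxide synthases and other oxidant-producing enzymes only Xdh, Maoa and Cyba were tested. Limma called 0 of the 3, 1 had an unadjusted p under 0.05 and limma-voom called 1. Nox4, the oxidase gene usual in endothelium, had 0.290 to 0.465 FPKM over the 6 libraries.

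Gpx1 was 1 of 4 selenoprotein transcripts that fell. Selenoproteins carry selenocysteine, inserted at a UGA codon that can otherwise mark the transcript for decay. Their mRNAs are known to differ in how they respond to selenium supply, which was not measured here. The member and related lists held 22 genes of selenoproteins, put together after their values were seen, of which 18 were tested, 1 rose and 4 fell. Over all genes 5.61% rose and 3.24% fell. The related list of selenoprotein and selenoprotein synthesis genes, which holds no members, had 20 genes. Of these 18 were tested, 1 rose (5.56%) and 3 fell (16.7%). Its synthesis genes Sephs1, Secisbp2, Eefsec, Pstk, Sepsecs and Trnau1ap were not called. Selenow had 105, 116 and 112 FPKM in the controls and 73.9, 69.4 and 80.2 FPKM with nattokinase, with the groups far apart (limma adjusted p = 0.00052, log2 fold change −0.57, SE 0.062). Selenoh had 50.4, 58.8 and 59.3 FPKM against 41.6, 39.3 and 40.9 FPKM (limma adjusted p = 0.0021, log2 fold change −0.46, SE 0.064). Selenom had 45.5, 52.1 and 55.4 FPKM against 41.3, 38.0 and 37.0 FPKM (log2 fold change −0.38, limma adjusted p = 0.011). The calls of Selenow and Selenoh held without any 1 library, and that of Selenom was lost without control replicate 2 or nattokinase replicate 3 (up to 0.052) and without the filter on low values (0.102).

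Selenop, which encodes the secreted selenium carrier, rose from 27.9 ± 1.13 to 38.0 ± 5.53 FPKM (limma adjusted p = 0.034), a call kept only without nattokinase replicate 1 and otherwise lost when any 1 library was left out (up to 0.115). It was lost without the filter on low values as well (limma adjusted p = 0.152). Its exons overlap those of Ccdc152 on the other strand. The other 13 tested selenoprotein genes were not called, with log2 fold changes from −0.12 for Msrb1 to 0.19 for Txnrd2. Selenok, Selenof and Selenon had −0.11, −0.11 and −0.10, and the groups of Selenon did not overlap. Whether these 13 differed from the 4 that fell was not tested.

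**Figure D5:**
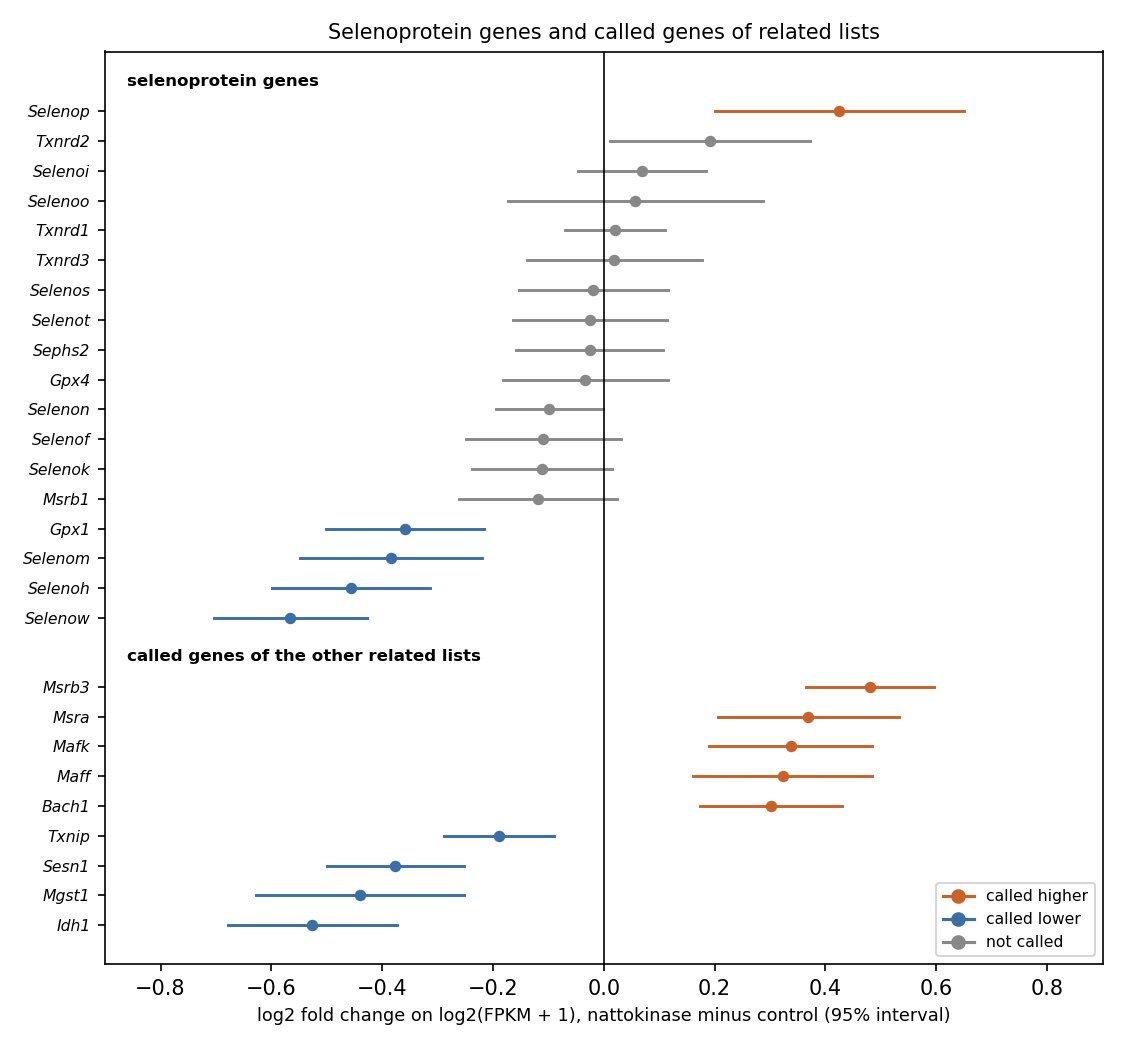
Log2 fold change on log2(FPKM + 1), nattokinase minus control, with 95% intervals from limma, for the 18 tested selenoprotein genes and for the called genes of the other related lists. Selenow, Selenoh, Selenom, Gpx1, Idh1, Mgst1, Sesn1 and Txnip lie below 0 in blue. Bach1, Mafk, Maff, Msra, Msrb3 and Selenop lie above 0 in orange.

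Of the 5 genes shown with the stricter element, Osgin1 and Me1 fell by 0.27 and 0.17 on the log2 scale, and Srxn1, Gstp1 and Prdx1 had −0.04, −0.05 and 0.06 without a call. Of the 10 with the broader form only Me1 was called.

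Under other scalings the 5 called members kept their calls, but some added further calls. Median-of-ratios scaling called the same 5 members, and quantile normalization added Keap1, Gsr, Gsto1 and G6pdx. With values scaled to the reads on protein-coding genes instead of all assigned reads (protein-coding totals), the 5 called members were called again. Keap1 and G6pdx also fell. Protein-coding genes held 95.4% to 96.7% of reads in the controls and 98.3% to 98.4% with nattokinase. Over all genes 612 rose and 354 fell as deposited (63.4% of calls higher), and 478 rose and 497 fell with protein-coding totals (49.0% higher). The shares of all genes given beside the members and lists therefore depend on the scaling.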

How the data were processed

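The authors deposited 1 file per library with FPKM for 55536 Ensembl genes. The unit was found from the values: FPKM times merged exon length in GENCODE M21 (GRCm38, all 55536 identifiers matched) came out, for 100% of values above 0 and within 0.05, as whole multiples of a unit fixed in each library, which gives the assigned reads or fragments. Per the submitters' processing notes reads were handled with HISAT2 2.1.0, Trimmomatic 0.38, featureCounts 1.6.0, DESeq2 1.22.1, CASAVA, MultiQC and FastQC, and the build named is GRCh38, a human build. Strandedness and RNA selection are not given in the sources used here, and 10 of the 41 members share exon positions with another gene.

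Groups came from the sample titles. Values were tested as log2(FPKM + 1) with limma 3.58.1 (R 4.3.3, intensity trend, robust prior, two-sided) where 3 or more libraries reached 1 FPKM, and the code was tested on simulated libraries. Ratios are of mean FPKM. Within-group correlations of log2 values were 0.992 to 0.995. A count of 3 reads on a gene with 2 kb of exons equal 0.082 to 0.10 FPKM, for counting error only. The rule for named genes gave every library for called members and for Nfe2l2, Keap1, Nqo1, Gclc, Gclm, Srxn1 and Txnrd1, other members by range, and called genes of 6 related lists, at most 4 a list. Other uncalled genes shown with values were picked after these were seen. Alternatives were other pseudocounts, filters and scalings, limma-voom on recovered reads, a replicate block, and each library left out in turn. Members, lists and tests were chosen with earlier results of these data known. Figures used matplotlib 3.10.9. Of the cell type markers, 2 are not reported here.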

Additional observations from a re-analysis of the deposited data

How the results depend on the processing

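The direction of the 5 called members (Hmox1, Osgin1, Gpx1, Me1 and Sod3) was the same in every alternative that gave them a value. The number of members that rose was 1 as reported, and 2 with a filter at 5 FPKM, with limma-voom and with quantile normalization, Gsto1 being added, and 0 without a filter on low values. The number that fell was 4 as reported, 2 with the filter at 5 FPKM (35 members tested), 7 with quantile normalization, 0 without a filter, and between 1 and 6 when 1 library was left out. Without a filter 221 genes rose and 109 fell among all genes, against 612 and 354, with 24549 genes tested. The cause was not tested. Leaving out 1 library gave 328 to 720 and 197 to 486. In the related lists, 6 rose and 7 fell as reported, 1 and 4 without a filter, 11 fell with limma-voom, and leaving out 1 library gave 2 to 5 and 5 to 13. With the replicate number as a block 2 members fell and 1 rose, Osgin1 and Me1 missing the threshold, and over all genes 439 rose and 249 fell. Same-numbered libraries did not deviate together (correlations of −0.09, −0.04 and −0.06), so the numbers are not shown to pair the libraries.

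Signs changed only for members close to 0. With protein-coding totals the log2 fold changes of Txn1, Txnrd1, Sod1 and Cat were −0.0053, −0.014, −0.016 and −0.0091, and with quantile normalization those of Txnrd1, Sod1 and Cat were −0.0025, −0.0030 and −0.0021. When 1 library was left out the values ran from −0.057 to 0.088 for Txn1, −0.015 to 0.097 for Prdx1, −0.12 to 0.011 for Prdx2, −0.13 to 0.0025 for Prdx3, −0.019 to 0.075 for Prdx4, −0.039 to 0.10 for Prdx5, −0.10 to 0.023 for Gpx4, −0.12 to 0.020 for Gstp1, −0.10 to 0.0020 for Ftl1, −0.042 to 0.078 for Sod1, −0.022 to 0.0062 for Sod2 and −0.022 to 0.060 for Cat. The cause of these changes was not tested. Gpx3, with 9 to 13 reads per library, was under the filter and has no test.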
